A study of Mus musculus with 3 samples.

Results

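The 10 genes described here are the claudins Cldn1, Cldn2, Cldn3, Cldn4, Cldn5, Cldn7, Cldn8, Cldn10, Cldn16 and Cldn19, chosen by name as the claudins of the kidney tubule and glomerulus, out of 22535 genes counted in 3 single-cell libraries. Each library was made on the BD Rhapsody platform, in which each RNA molecule receives its own barcode (UMI) on capture, from kidney cells of WT1CreERT2; Rosa26-tdTfl/+ mice. In these mice tamoxifen switches on the red fluorescent protein tdTomato (tdT) in cells that express Wt1, mainly podocytes and some parietal epithelial cells (PECs), and every group carries the same alleles. The library Sham held a kidney cell mixture enriched for tdT+ cells after sham surgery. For IRI24h-TDN the cells, tdT+ and tdT- mixed, came from kidneys 24 h after severe ischemia-reperfusion injury (IRI) on both sides, and IRI24h-TD was limited to tdT+ cells at that time point. The age of the mice is not given in the sources used here. Each group was 1 library, so differences between groups could not be checked against replicates or tested. Intervals in parentheses are exact 95% intervals that cover counting error only.

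Claudins are membrane proteins with 4 transmembrane spans whose extracellular loops meet between neighbouring cells and form the strands of the tight junction. The set of claudins in an epithelium decides which ions and how much water pass between its cells, some members making pores and others barriers. Along the nephron this set changes from segment to segment, from the leaky proximal tubule through the cation-selective thick ascending limb (TAL) to the tight collecting duct.

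Of 30008 barcodes, 26760 had at least 200 genes and at most 50% mitochondrial UMIs, and the median depth was 7746 UMIs per cell for Sham, against 9151 for IRI24h-TDN and 9529 for IRI24h-TD. Every Cldn gene was kept out of the clustering and of the marker lists, so that no claudin shaped a class. Of 44 clusters, 34 were named from markers into 15 classes with 24241 cells, and class names carry the ending "-like". Proximal tubule cells were split into those of the convoluted part (PT S1/S2-like) and of the straight part (PT S3-like). The labelled cells were found: all 10 podocyte markers were detected in at least 90.8% of podocyte-like cells and all 8 PEC markers in at least 39.3% of PEC-like cells. Defining markers were sparse in some tubule classes, with 6 of 8 S3 markers, 5 of 6 TAL markers, 5 of 6 connecting tubule (CNT) markers and 6 of 7 principal cell (PC) markers detected in at least 25% of cells. Between libraries 270 kept barcodes were shared, and they made up 540 of the 26760 cells. A level below is the UMIs of a gene summed over a class and scaled to 1000000 UMIs of that class (CPM). Within a class, fewer cells that carry a gene and less RNA of it per cell cannot be told apart in such a sum.

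In Sham, each claudin was concentrated in a few classes. Of the classes with at least 20 cells, Cldn5 was highest in podocyte-like cells, Cldn1 and Cldn2 in PEC-like cells, Cldn10, Cldn16 and Cldn19 in TAL-like cells, and Cldn3, Cldn4, Cldn7 and Cldn8 in PC-like cells. The intervals of the highest class and of the next overlapped for Cldn3, Cldn4, Cldn7 and Cldn8. UMI counts are not divided by gene length, so the levels compare classes for 1 gene and not genes with each other.

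**Figure D1:**
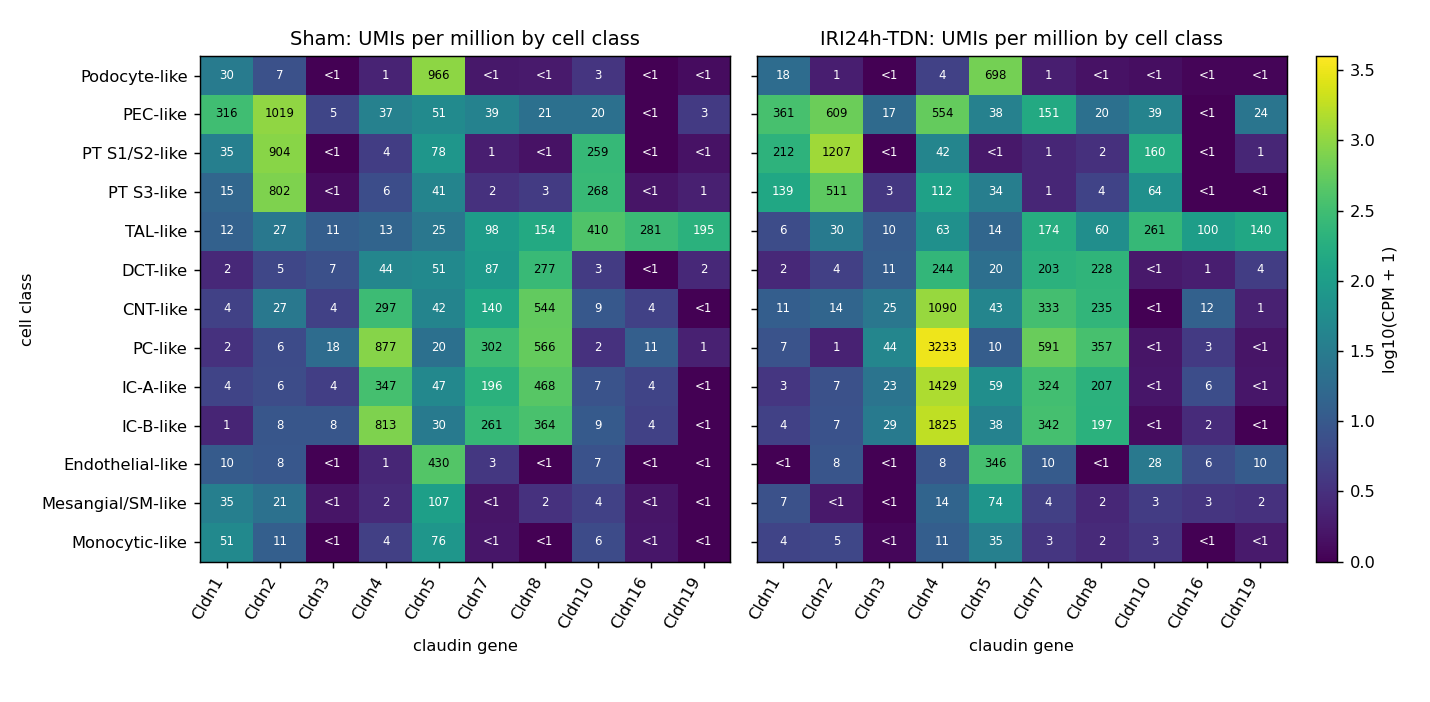
Level of each claudin (columns) in each cell class (one line per class) of Sham (left) and IRI24h-TDN (right). The number in a cell is CPM and the colour its log10 after adding 1. Cldn5 fills the podocyte-like line (966 and 698), Cldn2 the PEC-like and proximal lines, Cldn16 and Cldn19 the TAL-like line, and Cldn4 is brighter on the right in the PC-like line (877 and 3233).

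Cldn5 (chromosome 16, 18776847 to 18778262, plus strand, in GENCODE M21 on GRCm38) encodes a claudin known for sealing endothelium, and it is also a known tight junction gene of podocytes. It was at 966 CPM (956 to 976) in the 4285 podocyte-like cells of Sham, 698 CPM (691 to 705) in the 5093 of IRI24h-TDN and 768 CPM (762 to 774) in the 8308 of IRI24h-TD. Nearly every podocyte-like cell had a Cldn5 UMI, with 98.9%, 98.1% and 98.3% in the same order. Cldn5 made up 92.9%, 89.9% and 90.8% of all claudin UMIs of the class. In endothelial-like cells Cldn5 was lower, at 430 CPM in Sham and 346 CPM in IRI24h-TDN, and 23.3% (17.6 to 29.7) and 20.4% (13.1 to 29.5) of 202 and 103 cells had a UMI. These cells were shallow, with a median of 2320 and 3814 UMIs, and all 9 endothelial markers were detected in at least 55.3% of them. Their podocyte markers were at 13750 and 6898 CPM, beside endothelial markers at 13400 and 13560 CPM. How much of their Cldn5 came with podocyte RNA was not tested.

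Other classes of Sham and IRI24h-TDN held Cldn5 at 0.71 to 107 CPM, apart from the 21 and 31 neutrophil-like cells, with 61.4 and 343 CPM. In single-cell libraries free RNA of an abundant cell type can be counted in every cell, and it then keeps its genes in 1 ratio, as would a podocyte captured together with another cell. Per 100 UMIs of the 10 podocyte markers, podocyte-like cells of Sham had 2.3 Cldn5 UMIs, those of IRI24h-TDN 1.92 and those of IRI24h-TD 2.04. The interval of the same ratio held the podocyte-like value of its library in 24 of 28 values from the other classes, endothelial-like cells left aside. It lay above it in the mesangial and smooth muscle class of Sham, where smooth muscle and renin markers were at 24070 CPM and mesangial markers at 1965 CPM, and below it in monocytic-like cells of Sham and in IC-A-like and PT S1/S2-like cells of IRI24h-TDN. Endothelial-like cells had more, 3.13 (2.78 to 3.51) in Sham and 5.02 (4.29 to 5.85) in IRI24h-TDN. Whether tubule cells carried Cldn5 RNA of their own was not tested, and doublets were kept. PT S1/S2-like cells had 155 Cldn5 UMIs in Sham and 1 in IRI24h-TDN, while their podocyte markers went from 3289 to 228 CPM. The ratio in that class went from 2.36 to 0.31 (0.0079 to 1.75).

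**Figure D2:**
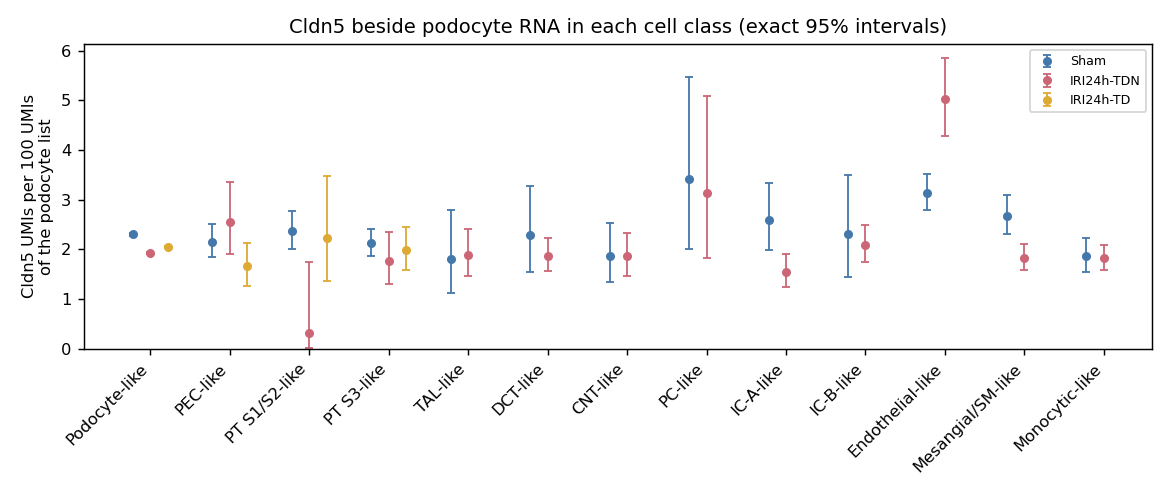
Cldn5 UMIs per 100 UMIs of the podocyte markers (vertical axis) in each class and library, with exact 95% intervals for counting error. Most tubule classes sit around the podocyte-like values of 1.92 to 2.3, and endothelial-like cells lie above them (3.13 and 5.02).

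Cldn1 (chromosome 16, 26356642 to 26371841, minus strand) encodes a barrier-forming claudin that is used as a marker of PECs, the flat cells that line Bowman's capsule. PEC-like cells had 316 CPM (297 to 335) in Sham, 361 CPM (330 to 394) in IRI24h-TDN and 443 CPM (410 to 479) in IRI24h-TD, with a UMI in 71.8%, 67.5% and 81.1% of 383, 126 and 143 cells. Podocyte-like cells, the neighbours of PECs in the glomerulus, had 30.5, 17.9 and 19.7 CPM. The next class after PEC-like cells in Sham was monocytic-like with 50.8 CPM (40.4 to 63.2), 6.21-fold lower.

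The PEC-like class was made of clusters 27 and 20, which differed in their claudins. Cluster 27 was led by the genes Tnc, Wnt16 and Cp, and cluster 20 by Bst1, Ugt2b34 and Scin. Cldn1 was found in 87.9% of the 174 cells of cluster 27 in Sham and in 58.4% of the 209 cells of cluster 20, at 331 and 298 CPM. Cldn10, a proximal and TAL gene, was at 1.16 and 41.4 CPM in the same clusters, and Cldn7 at 2.89 and 80.1 CPM. Cluster 20 thus held the claudins of later segments that cluster 27 nearly lacked.

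Clusters without a name also carried Cldn1. In Sham it was at 390 CPM in cluster 17, 498 CPM in cluster 22 and 486 CPM in cluster 32. Cldn2 separated these clusters, at 39.1 CPM in cluster 17, 22.4 CPM in cluster 32 and 1483 CPM in cluster 22, where each of the 209 Sham cells had a Cldn2 UMI.

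Cldn2 (chromosome X, 139800828 to 139811386, plus strand) forms the cation and water pore of the leaky proximal tubule. In Sham it was at 904 CPM (863 to 947) in PT S1/S2-like cells and 802 CPM (780 to 824) in PT S3-like cells, with a UMI in 82.6% and 90.2% of 327 and 724 cells. PEC-like cells had 1019 CPM (985 to 1054), with 792 CPM in cluster 27 and 1277 CPM in cluster 20. Which class was highest depended on the processing: at a lower clustering resolution PT S1/S2-like cells led, with 902 against 580 CPM. Past these classes Cldn2 dropped to 26.7 CPM in TAL-like and CNT-like cells and to 6.73 CPM in podocyte-like cells. Within cluster 27 of Sham, 85.0% (78.3 to 90.2) of the 153 cells with Cldn1 also had Cldn2, and so did 76.2% (52.8 to 91.8) of the 21 cells without Cldn1. The intervals overlapped, and after thinning the shares were 64.0% and 71.6%.

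Cldn10 (chromosome 14, 118787908 to 118875489, plus strand) is known for an anion-conducting isoform in the proximal tubule and a cation-conducting isoform in the TAL, which start from different first exons. The counts are per gene and cannot tell the isoforms apart. In Sham Cldn10 was at 410 CPM (367 to 456) in TAL-like cells, 268 CPM (255 to 281) in PT S3-like cells and 259 CPM (237 to 283) in PT S1/S2-like cells. It was at 41.4 CPM or less in either PEC-like cluster and at 9.41 CPM or less in the distal convoluted tubule (DCT), CNT, PC and intercalated classes. The RefSeq annotation of GRCm38.p6 gives the gene a pair of starts, and the 250 bases before each are shown because they belong to the isoforms that the counts merge. The upstream start lies in AT-rich sequence (36% G or C) that holds neither TATAAA nor the GC box GGGCGG on either strand. The downstream start lies in GC-rich sequence (72.4%) with 3 copies of GGGCGG. Capitals mark this motif on either strand.
Cldn10 upstream start, chr14:118787621-118787870, plus strand: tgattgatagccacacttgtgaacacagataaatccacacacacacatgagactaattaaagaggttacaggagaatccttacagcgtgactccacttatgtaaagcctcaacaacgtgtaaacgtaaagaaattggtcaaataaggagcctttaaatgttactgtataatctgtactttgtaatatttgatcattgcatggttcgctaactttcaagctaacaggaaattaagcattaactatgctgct
Cldn10 downstream start, chr14:118854700-118854949, plus strand: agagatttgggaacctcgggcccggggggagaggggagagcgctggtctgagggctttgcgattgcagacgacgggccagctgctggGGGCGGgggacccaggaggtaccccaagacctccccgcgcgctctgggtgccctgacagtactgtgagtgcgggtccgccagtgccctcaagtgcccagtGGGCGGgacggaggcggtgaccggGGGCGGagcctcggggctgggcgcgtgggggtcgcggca
Over all 32851 RefSeq starts, 32.7% held GGGCGG in the same window on either strand. A match is a description of the letters and not a binding site.

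Cldn16 (chromosome 16, 26463135 to 26482765, plus strand) and Cldn19 (chromosome 4, 119255414 to 119262438, plus strand) encode partners in the TAL on which the reabsorption of calcium and magnesium depends. Cldn16 was at 281 CPM (246 to 320) in the 111 TAL-like cells of Sham, and the next class, PC-like, had 11.3 CPM (5.4 to 20.7). Cldn19 was at 195 CPM (166 to 228) in TAL-like cells and at 3.08 CPM or less in every other named class with at least 20 cells in Sham. Cldn16 lies 91.3 kilobases from Cldn1, whose level in TAL-like cells was 12.1 CPM. Podocyte-like cells of Sham had 0 Cldn16 UMIs in 4285 cells, with an upper limit of 0.1005 CPM.

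The TAL-like cells did not carry Cldn10 and Cldn16 alike. In Sham, 46.2% (32.2 to 60.5) of the 52 cells with a Cldn10 UMI also had Cldn16, against 74.6% (61.6 to 85.0) of the 59 cells without it. The median depths of these cells were close, 6534 and 6632 UMIs. The split was also seen in IRI24h-TDN, with Cldn16 in 35.2% (29.3 to 41.6) of 244 cells with Cldn10 and in 67.3% (59.7 to 74.2) of 171 cells without it, although the cells with Cldn10 were deeper there (11820 against 9727 UMIs). After every cell was thinned to 2400 UMIs the shares were 23.8% and 50% in Sham and 10.9% and 25.7% in IRI24h-TDN. These are shares of the cells of 1 library each, and cells of 1 library are not replicates.

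The intervals of the other claudins and of Umod and Slc12a1 overlapped in Sham. Cldn19 was found in 57.7% of Sham cells with Cldn10 and 62.7% of those without. Cldn8 was found in 53.8% and 57.6%, and Cldn7 in 38.5% and 40.7%. Umod, the gene of uromodulin, was in 86.5% and 91.5%, and Slc12a1, the salt transporter that defines the TAL, in 100% and 98.3%. In IRI24h-TDN the intervals overlapped for Cldn19 (66.0% and 55.0%), Cldn8 (41.4% and 33.3%), Cldn7 (74.2% and 71.9%) and Slc12a1 (98.4% and 94.7%). Those of Umod did not, with 99.6% (97.7 to 100) of cells with Cldn10 and 94.2% (89.5 to 97.2) of cells without. Counted by both genes, Sham held 28 cells with Cldn10 alone, 44 with Cldn16 alone, 24 with both and 15 with neither, and IRI24h-TDN held 158, 115, 86 and 56. Slc12a1 was at 7167 CPM in the Sham cells with Cldn10 alone and 9372 CPM in those with Cldn16 alone. In IRI24h-TDN these levels were 2098 and 1184 CPM, in the opposite order.

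**Figure D3:**
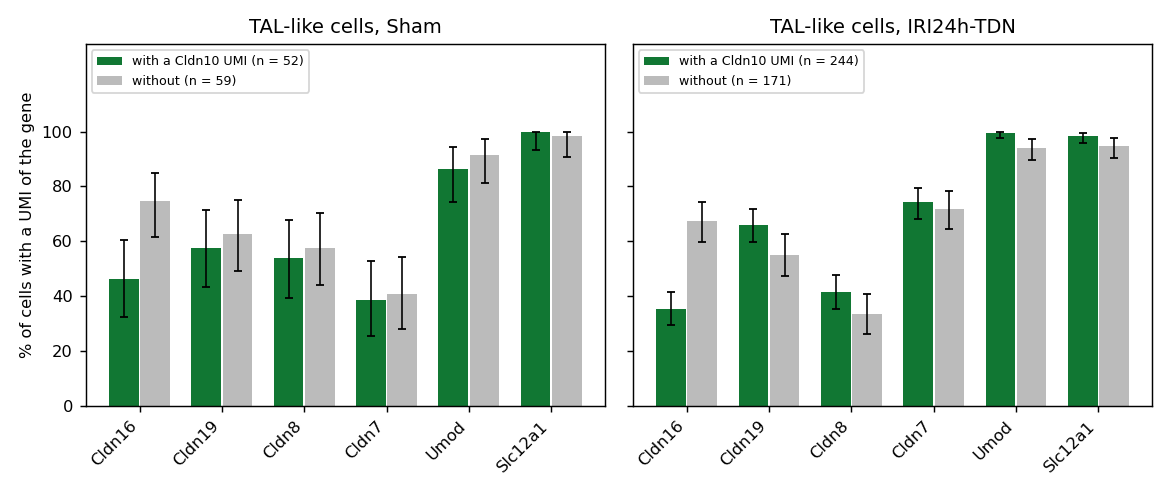
Share of TAL-like cells with a UMI of the gene named on the horizontal axis, among cells with a Cldn10 UMI (green) and without one (grey), in Sham (left) and IRI24h-TDN (right). Lines are exact 95% intervals for counting error. Cldn16 is less frequent in cells with Cldn10 (46.2% against 74.6% in Sham), while the intervals of Cldn19, Cldn8 and Cldn7 overlap.

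Genes that went with either side were picked by their ratio in Sham, so their Sham values are a description, and IRI24h-TDN was then read for the same genes. Of the 10 genes highest in Sham cells with Cldn10 alone over cells with Cldn16 alone, 8 had the same direction in IRI24h-TDN, among them Krt8 at 0.016, and 5 had an interval clear of 0. The other 2 had intervals clear of 0 on the opposite side, Gdf15 (-0.43 to -0.014) and Lmna (-0.60 to -0.0086). The 5 were Eprn (log2 ratio 4.69 in Sham and 2.55 in IRI24h-TDN), the homeobox genes Irx1 (3.73 and 1.81) and Irx2 (2.95 and 1.92), the prostaglandin receptor gene Ptger3 (3.69 and 1.99) and Tnfaip2 (3.09 and 1.70). On the side of Cldn16 alone, 8 of 10 kept the direction, among them H2-Q6 at -0.013, and 4 had an interval clear of 0, while Cxcl10 lay on the opposite side (0.27 to 0.93). Tmem52b had a log2 ratio of -9.14 (-14.45 to -6.66) in Sham, on 1 and 984 UMIs, and -5.15 in IRI24h-TDN, and was detected in 95.5% and 59.1% of cells with Cldn16 alone against 3.57% and 6.33% of cells with Cldn10 alone. The transcription factor genes Foxq1 and Zfp503 had -5.92 and -4.27 in IRI24h-TDN, and the collagen gene Col5a2 had -1.76. Foxq1 had 0 UMIs in the Sham cells with Cldn10 alone. With the floor of 3 counts in place of 0 its ratio there was -4.79, and its upper limit was -4.48. Ptger3, found in 82.1% of Sham cells with Cldn10 alone and 11.4% of those with Cldn16 alone, is on the TAL marker list. So is Enox1, on the side of Cldn16 alone in Sham (-2.90) and at 0.0057 in IRI24h-TDN. Tmem52b is on the DCT list.

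Cldn8 (chromosome 16, 88560828 to 88563183, minus strand) encodes a barrier claudin of the distal nephron that is known to bring claudin-4 to the junction. In Sham it was at 154 CPM (128 to 183) in TAL-like cells, 277 CPM (237 to 322) in DCT-like cells, 544 CPM (499 to 591) in CNT-like cells and 566 CPM (517 to 617) in PC-like cells. The intercalated classes, which secrete acid (IC-A-like) or base (IC-B-like), had 468 CPM (432 to 506) and 364 CPM (322 to 410). The PC-like and CNT-like intervals overlapped. It was at 20.6 CPM in PEC-like cells, of which 4.70% had a UMI, and at 3.23 CPM or less in proximal and podocyte-like cells.

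Cldn4 (chromosome 5, 134945119 to 134946934, minus strand) and Cldn3 (chromosome 5, 134986214 to 134987472, plus strand) are neighbours, 39.3 kilobases apart on opposite strands. Cldn4 is known in the collecting duct as a barrier to sodium that lets chloride pass, and Cldn3 is a general sealing claudin. In Sham Cldn4 was at 877 CPM (816 to 941) in PC-like cells, 813 CPM (750 to 881) in IC-B-like cells, 347 CPM (316 to 380) in IC-A-like cells and 297 CPM (264 to 332) in CNT-like cells. It fell away upstream, to 44.2 CPM in DCT-like and 13.3 CPM in TAL-like cells. Cldn3 was low throughout, with 18 CPM (10.3 to 29.3) in PC-like cells as its highest Sham level and 0 UMIs in podocyte-like cells. Their promoters are shown because both genes were higher in the collecting duct classes after IRI. The RefSeq windows hold 62.0% and 60.8% G or C for Cldn4 and Cldn3. Each holds 1 GC box in capitals, on the strand opposite to the gene, and neither holds the grainyhead core AACCGG or TATAAA.
Cldn4, chr5:134946935-134947184, minus strand: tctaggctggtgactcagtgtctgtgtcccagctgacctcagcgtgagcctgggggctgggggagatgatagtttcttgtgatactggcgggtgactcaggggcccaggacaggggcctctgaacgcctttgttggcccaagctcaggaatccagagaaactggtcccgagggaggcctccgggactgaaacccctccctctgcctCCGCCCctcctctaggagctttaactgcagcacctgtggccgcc
Cldn3, chr5:134985964-134986213, plus strand: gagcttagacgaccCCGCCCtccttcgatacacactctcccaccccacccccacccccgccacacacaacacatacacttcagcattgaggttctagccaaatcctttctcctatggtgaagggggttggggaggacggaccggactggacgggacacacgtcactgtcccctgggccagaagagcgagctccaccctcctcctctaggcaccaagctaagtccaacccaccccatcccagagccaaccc
Of all RefSeq starts 5.62% held AACCGG and 12.4% held TATAAA in this window. No match says only that these letters are not in the window.

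Cldn7 (chromosome 11, 69964779 to 69967885, plus strand) is found on the basolateral side of distal cells as well as in their junctions. It was at 302 CPM (267 to 340) in PC-like, 261 CPM (225 to 300) in IC-B-like, 196 CPM (173 to 222) in IC-A-like, 140 CPM in CNT-like, 98.2 CPM in TAL-like and 86.8 CPM in DCT-like cells of Sham. It stood at 2.3 CPM or less in both proximal classes. Cldn4, Cldn7 and Cldn8 thus marked the same distal classes, in different proportions: Cldn8 took 50.6% of the claudin UMIs of DCT-like and 49.3% of CNT-like cells, and Cldn4 took 47.6% of those of PC-like and 52.7% of IC-B-like cells.

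To ask how the claudins differed after IRI, IRI24h-TDN was compared with Sham within each class with at least 50 cells in both. A gene was counted where it had at least 20 UMIs in the pair of libraries, and it is said to rise or fall where its CPM differed at least 2-fold. Of 62 pairs of a claudin and a class, 21 rose and 9 fell. Over all genes counted, 5.41% to 18.8% were at least 2-fold higher and 6.18% to 16.4% at least 2-fold lower, depending on the class. The 21 higher pairs became 13 at clustering resolution 1 and also with at most 20% mitochondrial UMIs. Such a drop can hold pairs that were no longer counted as well as pairs short of 2-fold. Cldn4 rose in 9 of 9 classes, in podocyte-like cells at 1.25 and 3.99 CPM, Cldn3 in 5 of 6, Cldn1 in 3 of 6 and Cldn7 in 2 of 7. Cldn8 fell in 3 of 8 classes and Cldn10 in 2 of 5. Cldn2 and Cldn5 rose in none of their 7 and 10 classes and each fell in 1, Cldn2 in podocyte-like and Cldn5 in PT S1/S2-like cells. Some of these pairs rest on few UMIs, as named below. Cldn16 rose in 1 and fell in 1 of 2 classes, and Cldn19 rose in 1 of 2.

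**Figure D4:**
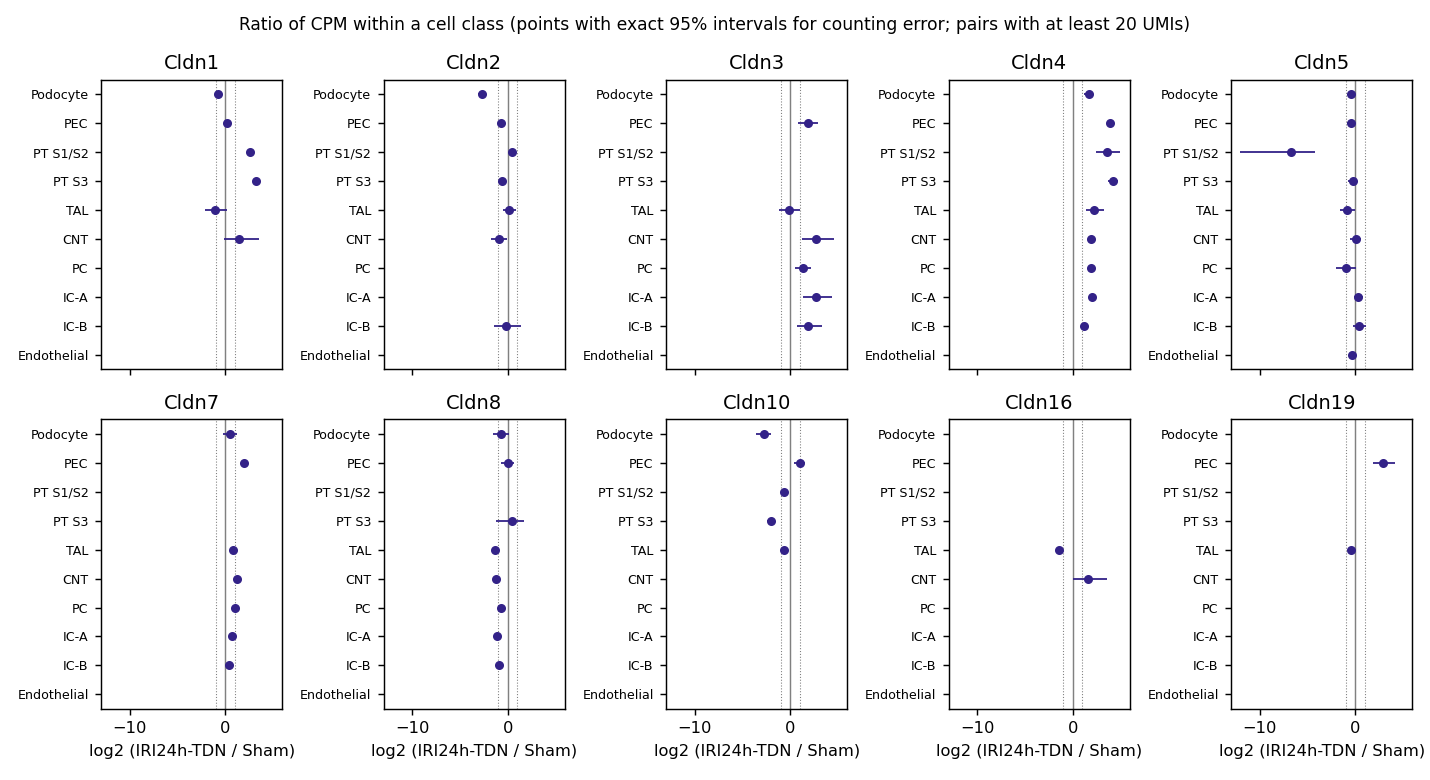
Log2 ratio of CPM in IRI24h-TDN over Sham for each claudin (panels) in each class (lines), with exact 95% intervals for counting error and dotted lines at 2-fold. Cldn4 lies to the right of 2-fold in all 9 classes counted, between 1.17 and 4.23, and Cldn8 mostly to the left of 0.

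In the collecting duct and CNT classes Cldn4 rose, and Cldn8 was lower. In PC-like cells Cldn4 went from 877 to 3233 CPM (3146 to 3321), a log2 ratio of 1.88 (1.77 to 1.99), and from 83.3% to 100% of 96 and 136 cells. In CNT-like cells it went from 297 to 1090 CPM (log2 1.88), in IC-A-like cells from 347 to 1429 CPM (2.04) and in IC-B-like cells from 813 to 1825 CPM (1.17). The share of cells with a UMI went from 70.1% to 95.5%, from 64.0% to 94.0% and from 65.6% to 92.9%. After thinning these shares were 42.7% and 81.8%, 32.8% and 81.2%, and 52.1% and 83.3%, so the difference was present at equal depth.

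Cldn8 moved the other way in the same classes. It fell from 544 to 235 CPM in CNT-like cells (log2 -1.21, -1.40 to -1.03) and from 468 to 207 CPM in IC-A-like cells (-1.18, -1.38 to -0.98). It was 566 and 357 CPM in PC-like cells (-0.66) and 364 and 197 CPM in IC-B-like cells (-0.89), both short of 2-fold. Cldn8 went from 49.3% to 12.9% of the claudin UMIs of CNT-like cells, and Cldn4 from 26.9% to 59.8%.

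Cldn3 and Cldn7 went with Cldn4. Cldn3 rose from 18 to 44.1 CPM in PC-like cells (log2 1.29), from 3.96 to 25.4 CPM in CNT-like cells (2.69), from 3.71 to 23.5 CPM in IC-A-like cells (2.66) and from 8.07 to 28.8 CPM in IC-B-like cells (1.83), on 4 to 16 UMIs in Sham. Cldn7 rose from 140 to 333 CPM in CNT-like cells (1.25). It was 302 and 591 CPM in PC-like cells (0.97), 196 and 324 CPM in IC-A-like cells (0.72) and 261 and 342 CPM in IC-B-like cells (0.39), short of 2-fold. All claudin UMIs together were at 1841 CPM in Sham and 4301 CPM in IRI24h-TDN in PC-like cells.

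Against the background of all genes counted, CNT-like cells had 5 of 8 claudins higher, where 9.82% of genes were at least 2-fold higher, and 1 lower, where 6.49% were. PC-like cells had 2 of 5 higher and 0 lower, beside 9.58% and 9.13% of genes. IC-A-like cells had 2 of 5 higher and 1 lower, beside 8.28% and 6.55%, and IC-B-like cells 2 of 6 higher and 0 lower, beside 12.1% and 6.18%. The median log2 ratio of the counted claudins was 1.36 in CNT-like, 0.97 in PC-like, 0.72 in IC-A-like and 0.38 in IC-B-like cells, and that of all genes lay between -0.05 and 0.05. Other markers moved in these classes as well. The connecting tubule markers went from 42150 to 14340 CPM in CNT-like cells, and the injured tubule markers (Havcr1, Krt20, Lcn2, Sox9, Krt18 and Spp1) from 2167 to 13400 CPM in CNT-like and from 873 to 12470 CPM in PC-like cells. Their part in the claudin differences was not tested.

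**Figure D5:**
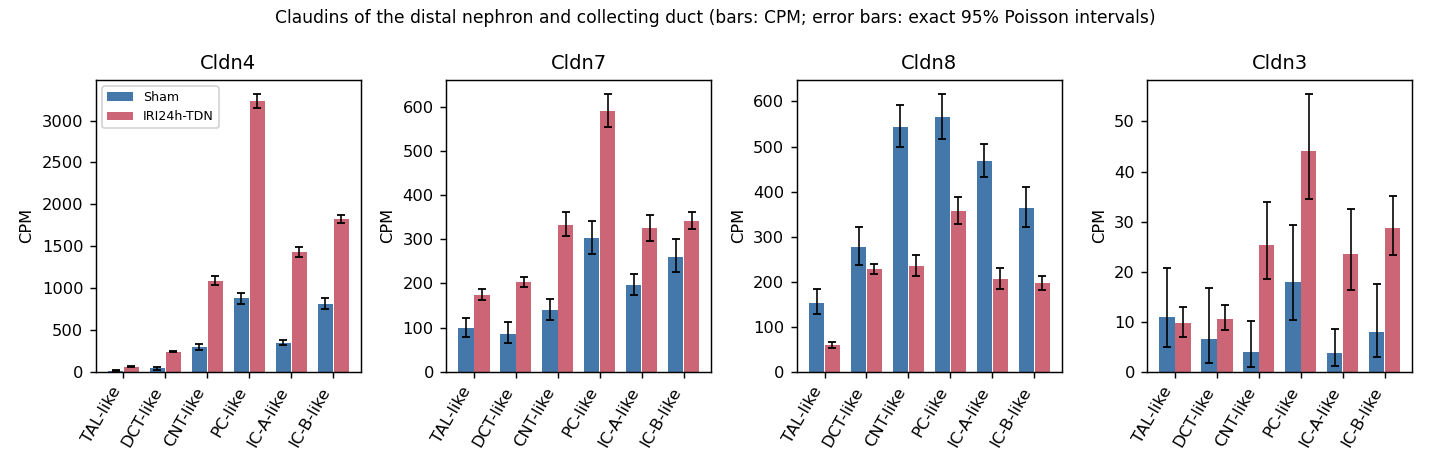
CPM of Cldn4, Cldn8, Cldn7 and Cldn3 in the distal classes of Sham and IRI24h-TDN, with exact 95% intervals for counting error. Cldn4 is higher in every class after IRI (877 and 3233 in PC-like cells), and Cldn8 is lower in every class (544 and 235 in CNT-like cells), with overlapping intervals in DCT-like cells.

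DCT-like cells were too few in Sham (48, beside 441) for the comparison, and their values are given side by side. Cldn4 was at 44.2 CPM (29.2 to 64.4) and 244 CPM (232 to 256), with a UMI in 14.6% and 52.2% of cells. Cldn7 was at 86.8 and 203 CPM, Cldn8 at 277 (237 to 322) and 228 CPM (217 to 240), and Cldn3 at 6.55 and 10.6 CPM. Cldn4 became the leading claudin of the class by its share of claudin UMIs, with 31.2%, beside 29.2% for Cldn8.

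In TAL-like cells Cldn16 and Cldn8 fell and Cldn4 rose. Cldn16 fell from 281 to 99.9 CPM (log2 -1.49, -1.72 to -1.26), while Cldn19 was 195 and 140 CPM (-0.48) and Cldn10 was 410 and 261 CPM (-0.65). Cldn8 fell from 154 to 59.6 CPM (-1.37), and Cldn1 fell from 12.1 to 5.81 CPM on 10 and 27 UMIs (-1.06, -2.15 to 0.15), but it was at 0.29 without the top 6% of doublet scores. Cldn4 rose from 13.3 to 62.9 CPM (2.24), and Cldn7 was 98.2 and 174 CPM (0.83). In all, 1 of 10 claudins was higher and 3 were lower, where 9.66% and 11.5% of genes were. Their median log2 ratio was -0.57, beside -0.05 for all genes. The TAL markers went from 13980 to 5016 CPM and the injured tubule markers from 5220 to 49950 CPM in the class, and their part was not tested. In CNT-like cells Cldn1 rose from 3.96 to 11.1 CPM on 4 and 20 UMIs (1.48, -0.095 to 3.49), and it was at -0.80 when classes were set cell by cell. Cldn16 in CNT-like cells went the other way, from 3.96 to 12.2 CPM on 4 and 22 UMIs (1.62, 0.06 to 3.62).

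In PEC-like cells Cldn4 rose from 37.2 to 554 CPM (log2 3.90, 3.62 to 4.19), Cldn7 from 39.1 to 151 CPM (1.95), Cldn3 from 4.61 to 16.7 CPM (1.86) and Cldn19 from 3.08 to 23.9 CPM (2.96). Without correction between libraries Cldn3 was at -0.050. That made 4 of 9 counted claudins higher and 0 lower, where 7.95% and 13.0% of genes were. IRI24h-TD, which holds tdT+ cells alone, did not show these values for Cldn4, Cldn7 and Cldn19. Its PEC-like cells had 15.1 CPM (9.46 to 22.9) of Cldn4, 39.8 CPM of Cldn7 and 0 UMIs of Cldn19. Their Cldn3 was at 13.7 CPM (8.38 to 21.19) on 20 UMIs, above the Sham interval (2.58 to 7.61) and close to IRI24h-TDN. The sort of IRI24h-TD leaves out tdT- cells, so that the gate and the level cannot be told apart here. Cldn1 and Cldn2 of the whole class were within 2-fold of Sham in both libraries, with Cldn2 at 609 and 780 CPM after 1019 CPM. The clusters of the class differed in Cldn2. In cluster 20 it was at 1277 CPM (1221 to 1335) in Sham, 425 CPM (384 to 469) in IRI24h-TDN and 876 CPM in IRI24h-TD. In cluster 27 it was at 792, 980 and 657 CPM in the same order. The difference in Cldn4 lay in cluster 20, where Cldn4 was at 74.9 CPM in Sham, 824 CPM in IRI24h-TDN and 26.9 CPM in IRI24h-TD. In cluster 27 it was at 4.05 and 8.77 CPM in Sham and IRI24h-TDN and had 0 UMIs in IRI24h-TD. Within cluster 20 of IRI24h-TDN, Cldn4 was found in 80.6% (64.0 to 91.8) of the 36 cells without Cldn2 and in 26.1% (14.3 to 41.1) of the 46 cells with it, at median depths of 9641 and 9390 UMIs. In Sham the same shares were 15.9% and 3.64%, at 1790 and 6459 UMIs. Cluster 20 thus held cells with Cldn2 and cells with Cldn4 in IRI24h-TDN, and a value of the PEC-like class is a mean over both. Other markers moved with these values. In PEC-like cells of Sham and IRI24h-TDN, injured tubule markers went from 3647 to 10040 CPM, urothelial markers from 39.4 to 181 CPM and thin limb markers from 232 to 485 CPM, beside PEC markers at 6831 and 6405 CPM. In cluster 20, PEC markers went from 4506 to 2696 CPM, injured tubule markers from 3812 to 8327 CPM and urothelial markers from 60.4 to 264 CPM, so its PEC-like name is in doubt in IRI24h-TDN, where the Cldn4 difference lay. Their part in the claudin differences was not tested.

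In the proximal classes Cldn1 rose. It went from 34.6 to 212 CPM (189 to 238) in PT S1/S2-like cells (log2 2.62) and from 14.6 to 139 CPM (120 to 159) in PT S3-like cells (3.25), and IRI24h-TD had 253 and 125 CPM. The share of PT S1/S2-like cells with a Cldn1 UMI was 13.8%, 68.9% and 73.5%. Thinned to equal depth it was 5.93%, 21.3% and 40.6%. Cldn10 fell from 268 to 63.6 CPM in PT S3-like cells (-2.07, -2.40 to -1.77) and was 259 and 160 CPM in PT S1/S2-like cells (-0.69). Cldn2 was within 2-fold in both classes taken whole, at 904 and 1207 CPM and at 802 and 511 CPM. Cldn4 rose from 3.51 to 42.1 CPM (3.58) and from 5.99 to 112 CPM (4.23), and a UMI was found in 19.7% and 24.7% of cells of IRI24h-TDN, at median depths of 21920 and 12800 UMIs. Thinned to equal depth, the shares in Sham and IRI24h-TDN were 0.37% and 1.64% in PT S1/S2-like cells and 0.78% and 11% in PT S3-like cells. Monocytic-like cells, which should lack Cldn4, had 1.05% and 1.32%, so the thinned PT S1/S2-like share was near background.

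Different clusters held the proximal cells of Sham and of the IRI libraries. Cluster 26 gave 282 of the 327 PT S1/S2-like cells of Sham and 6 of the 61 of IRI24h-TDN, and cluster 34 gave 45 and 55. Within cluster 34 Cldn1 was at 44.3 CPM in Sham, 214 CPM in IRI24h-TDN and 253 CPM in IRI24h-TD, and Cldn10 at 296, 159 and 113 CPM. Cldn5 had 150 of the 155 Sham UMIs of the class in cluster 26. In cluster 34 it had 5 UMIs in Sham and 1 in IRI24h-TDN, so its fall within a cluster rests on few UMIs. Within cluster 16 of the PT S3-like cells Cldn1 was at 17.1, 177 and 148 CPM, Cldn4 at 2.60, 157 and 140 CPM and Cldn10 at 221, 23.2 and 39.3 CPM. Cldn2 was lower after IRI in this cluster, at 696 (659 to 734), 333 (298 to 371) and 406 CPM. The Cldn2 value of the PT S3-like class is thus a mean over clusters that differed. In cluster 19, which held 364 and 21 of the PT S3-like cells of Sham and IRI24h-TDN, Cldn1 was at 13.5 and 49.5 CPM and Cldn10 at 287 and 158 CPM. Cldn4 was at 7.42 (5.13 to 10.4) and 9.43 CPM (2.57 to 24.1) there, which shows no difference at this depth, and Cldn2 was at 847 and 927 CPM. The Cldn4 rise of PT S3-like cells thus lay in cluster 16. In IRI24h-TDN, S3 markers were at 463 CPM in cluster 16 and 2021 CPM in cluster 19, beside 481 CPM in PT S1/S2-like cells. PEC markers were at 1030 CPM in cluster 16, so its S3 name is in doubt in IRI24h-TDN. In PT S1/S2-like cells 2 of 5 claudins were higher and 1 lower, where 13.9% and 16.4% of genes were, and in PT S3-like cells 2 of 6 and 1, where 18.8% and 14.6% were. PT S3-like cells had a median log2 ratio of 0.17 over all genes, and the claudin ratios of that class may be read relative to it. The PT S3-like cells of IRI24h-TD were shallow, with a median of 1227 UMIs, and their podocyte markers were at 13220 CPM. Proximal S1/S2 markers went from 17130 to 3989 CPM and injured tubule markers from 547 to 11000 CPM in PT S1/S2-like cells of Sham and IRI24h-TDN. In PT S3-like cells S3 markers went from 8788 to 930 CPM, S1/S2 markers from 11110 to 2064 CPM and injured tubule markers from 41.2 to 6875 CPM. PEC markers were higher too. In PT S1/S2-like cells they went from 142 CPM in Sham to 1020 CPM in IRI24h-TDN, with 1796 CPM in IRI24h-TD. In PT S3-like cells these values were 91.5, 870 and 918 CPM, and in cluster 34 they were 196, 985 and 1796 CPM. The part of all these markers in the claudin differences, that of Cldn1 included, was not tested.

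In podocyte-like cells 1 of 7 counted claudins was higher and 2 were lower, where 5.41% and 9.58% of genes were. Cldn5 was 1.38-fold lower in IRI24h-TDN than in Sham, short of 2-fold. The members past 2-fold were all rare there. Cldn4 was at 1.25 and 3.99 CPM (1.67) and was detected in 1.05% and 3.59% of cells, beside 1.60% and 4.16% of monocytic-like cells, which should lack it, at median depths of 4484 and 5727 UMIs against 8315 and 9386. Cldn2 was at 6.73 and 1.04 CPM (-2.70) beside 11.3 and 4.92 CPM in monocytic-like cells, and Cldn10 at 2.56 and 0.37 CPM (-2.81) beside 5.65 and 2.71 CPM. All these levels lay below those of monocytic-like cells of the same library, so no expression is read from them, and their source was not tested. In endothelial-like cells 1 claudin was counted, Cldn5, within 2-fold (-0.31), where 6.35% of genes were at least 2-fold higher and 9.53% lower.

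Other claudins were sparse, and those with at least 20 UMIs in a group are named. Cldn14, a claudin known to oppose Cldn16 in the TAL, rose in TAL-like cells from 10.9 to 64.8 CPM (log2 2.57, 1.63 to 3.71) on 9 and 301 UMIs, and was found in 13.0% of cells of IRI24h-TDN. Its share there was 12.4% of cells with Cldn16 and 13.6% of cells without. Cldn14 also led the unnamed cluster 35, with 21 cells of Sham and 95 of IRI24h-TDN, which these values leave out. The best marker list of that cluster was TAL, with podocyte markers close, and 28.9% of its cells had top doublet scores. In IC-A-like cells Cldn14 went from 2.22 to 11.4 CPM (2.36, 0.57 to 4.77), on 3 and 17 UMIs. Cldn12 was widespread, with 59.8 and 96.8 CPM in PT S3-like cells and 21.4 CPM, then 40.4 and 43.5 CPM after IRI, in podocyte-like cells. Cldn15 was highest in endothelial-like cells, at 161 and 216 CPM with a UMI in 36.6% and 56.3% of cells, and it fell in PEC-like cells from 40.9 to 2.18 CPM (-4.23, -6.53 to -2.65), on 133 and 3 UMIs. Cldn6 rose in PC-like cells from 2.25 to 18.4 CPM (3.03, 1.05 to 6.14), on 2 and 30 UMIs. Cldn11 was seen in the unnamed cluster 17, at 169 CPM in IRI24h-TDN and 55.0 CPM in IRI24h-TD. Cldn9 reached 10.2 CPM in IC-B-like cells and Cldn23 2.95 CPM in DCT-like cells of IRI24h-TDN, and Cldn34c1 stayed at 2.67 CPM or less in podocyte-like cells.

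The rest of the tight junction was described by a list of 35 genes, chosen for their role at the junction. In CNT-like cells 3 of 30 counted rose and 0 fell, where 9.82% and 6.49% of all genes counted did. They were Ocln, the gene of occludin (17.8 to 45.9 CPM, log2 1.37), Marveld2, the gene of tricellulin at the corners where cells meet (1.41), and the adhesion gene Nectin2 (1.55). In PC-like cells 3 of 29 rose and 3 fell: Marveld2 (1.92) and Amotl1 (1.28) were among those that rose, and Amotl2 (-1.55), Tjp3 (-1.38) and the polarity kinase gene Prkcz (-1.11) fell, beside 9.58% and 9.13% of all genes. IC-A-like cells had 4 of 28 higher (8.28% of all genes), among them Ildr2 (1.33) and Marveld2 (1.19), and IC-B-like cells 3 of 29 higher and 2 lower (12.1% and 6.18%), with Cxadr at 1.52 and Ildr2 at 1.76. TAL-like cells had 0 of 30 higher and 2 lower, Amotl2 (-1.31) and Prkcz (-1.01), beside 9.66% and 11.5% of all genes. In PEC-like cells 5 of 31 rose and 3 fell (7.95% and 13.0%), and Ocln (1.39) and Marveld2 (1.27) were among those that rose. PT S1/S2-like cells had 6 of 29 higher and 3 lower (13.9% and 16.4%) and PT S3-like cells 6 of 30 and 1 (18.8% and 14.6%), with Ybx3, a regulator bound to the junction, at 1.52 and 2.37. Podocyte-like cells had 1 of 33 higher and 0 lower (5.41% and 9.58%), and endothelial-like cells 3 of 24 and 2 (6.35% and 9.53%). Summed over the classes these were 34 rises and 16 falls. With so few genes counted, shares near those of all genes, as in CNT-like, PC-like and PT S3-like cells, are no result about the list.

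A list of 14 regulators and partners of claudins was counted in the same way. The kinase genes Wnk1 and Wnk4 and the adaptor gene Klhl3 belong to the system that controls distal salt transport. Wnk1 fell in TAL-like cells from 928 to 129 CPM (log2 -2.85) and in CNT-like cells from 569 to 183 CPM (-1.64). Klhl3 fell in the same classes (-2.41 and -1.84), and Wnk4 fell in CNT-like (-1.18) and IC-A-like cells (-1.02). The calcium-sensing receptor gene Casr, which acts on Cldn14 in the TAL, fell in TAL-like cells from 129 to 56.2 CPM (-1.19). The proximal tubule transcription factor gene Hnf4a fell in PT S3-like cells (-1.30). The collecting duct factor gene Tfcp2l1 fell in PC-like cells (-1.07), and the protease gene St14 rose there (1.48) and in PEC-like cells (4.06, from 12 and 85 UMIs). In all, 0 of 12 regulators rose and 3 fell in TAL-like and in CNT-like cells, where 11.5% and 6.49% of all genes fell. Of 12 each, 1 rose and 2 fell in PC-like cells, 3 rose and 2 fell in PEC-like cells, 0 rose and 1 fell in IC-A-like cells and 0 moved either way in IC-B-like cells. In PT S3-like cells 1 of 11 rose and 3 fell, in PT S1/S2-like cells 0 of 10 and 1, in podocyte-like cells 0 of 11 and 3, and in endothelial-like cells 1 of 4 and 0. The shares of all genes are those given for the junction list.

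The genes most like each claudin were taken by Pearson's r of log2(CPM + 10) over 14 classes, the libraries pooled. These points share libraries and clusters, and r is a description. Cldn7 went with Epcam (0.99), which is known to bind claudin-7, and Cldn8 with Sgpp2 (0.99). Cldn19 went with Irx1 and Irx2 (both 0.99), and Cldn16 with Irx2 (0.94), Irx1 (0.94) and Cldn19 (0.92). This likeness is between classes: within TAL-like cells Irx1 and Irx2 were on the side of Cldn10 alone and not of Cldn16 alone. Cldn5 went with Podxl (0.99) and St6galnac3 (0.99). Cldn2 went with Myo7b (0.98), a gene of the brush border, Cldn1 with Osr2 (0.96), Cldn10 with the sodium-proton exchanger gene Slc9a3 (0.95), Cldn3 with Zfp7 (0.96) and Cldn4 with AA986860 (0.95).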

How the data were processed

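The 3 libraries were 1 each of Sham, IRI24h-TDN and IRI24h-TD. The authors deposited tables of whole-number UMI counts, genes by barcodes, without normalization. Per the labels, CASAVA 1.8, UMI-tools and Seurat were used with the mm10 genome, and the paper's text names Harmony. The limits for filtering cells are not given in the sources used here.

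Barcodes with at least 200 genes and at most 50% mitochondrial UMIs (26760 of 30008) were scaled to 10000 per cell, and 2000 variable genes without any Cldn gene gave 30 principal components. These were corrected between libraries with the Harmony procedure (theta 2, numpy 2.4.6) and clustered on 15 neighbours at resolution 2 (leidenalg 0.10.2). A cluster was named where at least 3 markers of a list were each detected in 25% of its cells, by a rule settled in detail after the clusters were seen. The members and gene lists were chosen with earlier results of these data known. Doublets were not removed. Thinning to 2400 UMIs left out 1368 cells.

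Intervals were exact Poisson for CPM, Clopper-Pearson for shares and conditional binomial for ratios (scipy 1.17.1). A count of 0 was given the floor of 3 counts per class, and no p-value was computed. The named genes were all 10 claudins, other claudins with at least 20 UMIs in a group, genes among the 3 largest in each direction of a list in a class, and the 3 genes most like each claudin. Some genes of the lists are not reported here. The genes named for the split of TAL-like cells were chosen after their values were seen. The ratio, its interval and the 2-fold call were tested on counts simulated from the Sham sums of PC-like and TAL-like cells. The simulation held counting error only, so it cannot show the spread between libraries. The other steps were not tested on simulated data. Alternatives were other limits on cells, other resolutions, no correction, classes cell by cell, other folds and UMI minimums, thinning and TMM scaling (edgeR 4.0.16), and 3 chosen after seeing the data left out shared barcodes, cluster 20, or all but 1 cluster of each proximal class. Sequences are RefSeq GRCm38.p6, which matched 9 of the 10 members, and Cldn8 had no entry.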

Additional observations from a re-analysis of the deposited data

Results flagged for a closer look

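The log2 ratio of Cldn1 in IRI24h-TDN over Sham was 3.25 (2.89 to 3.62) in PT S3-like cells and -1.06 (-2.15 to 0.15) in TAL-like cells. The TAL-like value rests on 10 and 27 UMIs, its interval holds 0 and it was 0.29 without the top 6% of doublet scores, so a fall there is not shown. Cldn16 had a log2 ratio of 1.62 in CNT-like cells, on 4 and 22 UMIs, and -1.49 in TAL-like cells, on 232 and 464 UMIs. Each pair is given because its values passed 2-fold on opposite sides. With 1 library per group, neither difference between classes was tested.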

How the results depend on the processing

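Of 313 alternative log2 ratios of the 30 pairs of a claudin and a class past 2-fold, 299 stayed past 2-fold in the same direction. The 3 that reversed rested on few UMIs or on 1 class: Cldn1 in TAL-like cells (-1.06) was 0.29 without the top 6% of doublet scores, Cldn3 in PEC-like cells (1.86) was -0.050 without correction between libraries, and Cldn1 in CNT-like cells (1.48) was -0.80 with classes set cell by cell. The causes were not tested. Pairs no longer counted under an alternative are not among the 313 ratios, so the 299 do not show how many were lost in that way. The 21 higher pairs became 13 at resolution 1 and 13 with at most 20% mitochondrial UMIs. These drops can hold pairs no longer counted as well as pairs short of 2-fold, and the number counted is not reported here. The 9 lower pairs became 20 when 1.5-fold was counted. Without cluster 20 there were 17 higher pairs, and without shared barcodes 21 higher and 10 lower. The 34 higher pairs of a tight junction gene and a class became 16 with at most 20% mitochondrial UMIs, 21 cell by cell and 76 at 1.5-fold, and the 16 lower pairs became 38 at 1.5-fold, since a smaller fold admits more genes. With at most 20% mitochondrial UMIs, 6 of the 10 claudins kept their highest class. Under other alternatives the class with most Cldn2 was PEC-like or proximal, and that of Cldn4 and Cldn7 PC-like or intercalated. Cldn8 was highest in CNT-like cells at resolution 3 and without the top doublet scores, Cldn3 in TAL-like cells with at most 20% mitochondrial UMIs, and Cldn1 in fibroblast-like cells (353 CPM, beside 325 CPM in PEC-like cells) with at least 500 genes per barcode.

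The split of Cldn10 and Cldn16 in TAL-like cells was given in the other order as well. In Sham, Cldn10 was in 35.3% of cells with Cldn16 and 65.1% of cells without, and in IRI24h-TDN in 42.8% and 73.8%. Thinned to 2400 UMIs, these were 22.7%, 48.5%, 17.4% and 37.5%. The share in cells without Cldn16 was 45.5% in Sham cell by cell, and in IRI24h-TDN 57.7% cell by cell, 59.3% at resolution 1, 66.8% without correction and 53.3% when 2 UMIs were asked for. The share in cells with Cldn16 of IRI24h-TDN was 28.3% when 2 UMIs were asked for and 51.9% with at most 20% mitochondrial UMIs. Apart from the setting of 2 UMIs, the share on the other side of the split at the same setting is not reported here. How far the split held under those settings therefore cannot be read from these values. No paired analysis was possible because each group is 1 library. TMM scaling shifted PT S3-like ratios by 0.22 and no other class by more than 0.1. Depth limits claudins under about 10 CPM in classes near 100 cells, where they rest on a few UMIs.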
